A study of Mus musculus with 40 samples.

Results

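The genes described here are 43 genes of ribosome biogenesis and of growth metabolism that are commonly listed as targets of the MYC family. They were picked by gene symbol. Each gene was read from 1 probe set, the brightest on average. Of the 43 genes 42 had a probe set under their symbol (Gnl3 had none), out of 17097 genes measured. The 40 arrays held total RNA of J558LuM, a mouse plasmacytoma line, that had been transduced and not treated further. Cells of 7 arrays each carried PAX5-WT, PAX5-G183S and PAX5-G183V, cells of 6 each carried PAX5-P80R and PAX5-Δ2-6, and cells of 7 carried the empty vector MIR. PAX5 is the transcription factor that holds B cell identity and is silenced when B cells become plasma cells. G183S, G183V and P80R name amino acid substitutions of it, and P80R lies in the paired domain, which binds DNA. Every array was a separate transduction of the same line, so the spread between arrays is that between transductions of 1 line.

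MYC, MYCN and MYCL are basic helix-loop-helix proteins that bind DNA with their partner MAX at the E-box CACGTG and raise transcription of genes for ribosome production, nucleotide and polyamine synthesis and translation. A ribosome begins as a precursor RNA made by RNA polymerase I in the nucleolus. Small nucleolar ribonucleoproteins modify it, and separate sets of factors fold and cut it into the small and the large subunit. Plasmacytomas of mice usually carry a translocation that drives Myc, and Mycn is otherwise low in mature lymphoid cells. Levels below are log2 signals, differences are on the log2 scale with the standard error (SE) of limma, and "called" means past the threshold of 0.05 for limma's p-value after Benjamini-Hochberg adjustment over all 17097 genes.

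Of the 43 genes 36 had a promoter window of 300 bases (250 before to 50 after the start site) in RefSeq, and the E-box CACGTG, which reads the same on both strands, lay in the window of 10 of the 36 (27.8%), against 2187 of 27025 genes (8.09%) in the whole table. Counted by window the shares were 24.4% of 45 and 7.15% of 32851. The windows shown are those of 3 genes that hold an E-box and are taken up below, Utp20, Nme1 and Rrn3, and of Odc1, a textbook MYC target whose window held no match. All are in build GRCm38.p6 and run 5′ to 3′ on the strand of the gene, in lower case with each CACGTG in capitals: Utp20 at chr10:88826765-88827064, minus strand; Nme1 at chr11:93968223-93968522, minus strand, 1 of 2 windows of this gene; Rrn3 at chr16:13780449-13780748, plus strand; and Odc1 at chr12:17544623-17544922, plus strand.
Utp20: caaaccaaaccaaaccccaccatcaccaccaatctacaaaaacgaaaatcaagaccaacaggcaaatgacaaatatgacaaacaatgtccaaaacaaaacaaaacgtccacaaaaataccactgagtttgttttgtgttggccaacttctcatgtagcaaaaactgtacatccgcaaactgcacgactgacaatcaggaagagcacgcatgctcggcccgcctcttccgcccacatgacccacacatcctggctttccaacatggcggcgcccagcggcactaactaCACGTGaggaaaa
Nme1: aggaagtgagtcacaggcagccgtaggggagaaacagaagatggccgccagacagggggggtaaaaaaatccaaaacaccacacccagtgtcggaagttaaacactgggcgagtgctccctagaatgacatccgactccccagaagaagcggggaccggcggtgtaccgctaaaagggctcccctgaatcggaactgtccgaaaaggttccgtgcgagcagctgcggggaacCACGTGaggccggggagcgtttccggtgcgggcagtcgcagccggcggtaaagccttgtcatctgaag
Rrn3: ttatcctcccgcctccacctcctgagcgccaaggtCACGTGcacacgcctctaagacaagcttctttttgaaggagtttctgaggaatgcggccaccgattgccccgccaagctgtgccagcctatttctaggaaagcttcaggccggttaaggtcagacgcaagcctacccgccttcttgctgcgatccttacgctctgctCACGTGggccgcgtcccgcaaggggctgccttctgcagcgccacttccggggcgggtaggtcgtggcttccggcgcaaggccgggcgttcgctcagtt
Odc1: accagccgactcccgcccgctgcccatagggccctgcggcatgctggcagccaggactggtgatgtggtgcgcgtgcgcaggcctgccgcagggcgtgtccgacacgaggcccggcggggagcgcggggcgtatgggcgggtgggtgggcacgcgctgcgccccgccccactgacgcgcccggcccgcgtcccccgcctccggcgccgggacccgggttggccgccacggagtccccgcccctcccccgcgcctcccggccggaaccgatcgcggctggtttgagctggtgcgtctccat
The E-box began 37 bases after the start site in Utp20, 18 bases before it in Nme1 (the window of its other start site, chr11:93967976-93968275, holds an E-box 29 bases before that site), and 215 and 48 bases before it in Rrn3. A match describes these letters only, and binding was not measured.

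The plasma cell identity of the line was seen in its markers, with mean levels of 13.2 for Xbp1, 12.4 for Jchain and 10.9 for Irf4, while Lyz2, Col1a1 and Cd3e lay at 3.26, 3.32 and 3.99, below the median of every array (4.21 to 4.27). Markers of other cells that stood above 5, chosen after their values were seen, were Cd28 (9.26), Cd3g (8.29) and Cd6 (6.78) of 9 T cell genes and Cd68 (10.5) and Csf1r (5.28) of 10 myeloid genes. The arrays measured whole cultures, so fewer cells of a type and less RNA per cell cannot be told apart. The values were normalized to a common scale per array by the authors, and a change of all RNA per cell would not be seen. Of the 42 measured members 40 had a mean level of 5 or more. Ncl (nucleolin, 3.57) and Eif4e (the cap-binding translation factor, 3.76) lay in the range of these dim markers.

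The question was whether these genes moved where Mycn fell. Mycn had a lowest, median and highest log2 signal of 11.20, 11.68 and 12.15 in PAX5-WT arrays, 11.10, 11.66 and 11.91 in PAX5-G183S, 12.004, 12.32 and 12.45 in PAX5-G183V, 12.33, 12.61 and 12.99 in PAX5-P80R, and 13.72, 13.78 and 13.91 in PAX5-Δ2-6, against 13.58, 13.75 and 13.81 in MIR. In the first 4 constructs every array lay below every MIR array, and PAX5-Δ2-6 overlapped MIR. Mycn was 4.02-fold lower in PAX5-WT, 4.66-fold lower in PAX5-G183S, 2.78-fold lower in PAX5-G183V and 2.03-fold lower in PAX5-P80R, with log2 differences of -2.01 ± 0.14, -2.22 ± 0.14, -1.48 ± 0.14 and -1.02 ± 0.15 (SE; limma adjusted p at most 1.67e-05). In PAX5-Δ2-6 it differed from MIR by 0.13 ± 0.15 (limma adjusted p = 0.875). The fall in PAX5-P80R differed between the RNA isolation batches, at -1.36 in batch 1 and -0.64 in batch 2 (limma interaction adjusted p = 0.0115). In batches 1 and 2 it was -1.76 and -2.33 in PAX5-WT, -1.98 and -2.37 in PAX5-G183S, and -1.74 and -1.25 in PAX5-G183V. These batch differences were not called (limma interaction adjusted p = 0.242, 0.949 and 0.0575 in that order). Other probe sets of Mycn were dim (3.50 and 3.94) and are not used. The vector's sequence was not used here, so whether it shares sequence with the Mycn probe set was not tested.

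Myc itself stayed high in every group. Its lowest, median and highest signals were 11.63, 11.81 and 12.16 in PAX5-WT, 11.69, 12.04 and 12.16 in PAX5-G183S, 11.74, 11.86 and 11.97 in PAX5-G183V, 11.62, 11.90 and 12.03 in PAX5-P80R, and 11.61, 11.80 and 11.96 in PAX5-Δ2-6, against 11.63, 11.69 and 11.96 in MIR. All groups overlapped when both isolation batches were pooled. Myc was higher in batch 2 than in batch 1 in every group, by 0.15 (PAX5-G183V) to 0.40 (PAX5-WT). Within batch 2 PAX5-WT (12.06 to 12.16), PAX5-G183S (12.04 to 12.16) and PAX5-P80R (12.02 to 12.03) lay wholly above MIR (11.91 to 11.96). PAX5-G183V and PAX5-Δ2-6 overlapped MIR there. Within batch 1 only PAX5-G183V (11.74 to 11.77) lay wholly above MIR (11.63 to 11.69), and the other constructs overlapped it. Each of these ranges holds only 3 or 4 arrays and is not adjusted for plate, and all PAX5-P80R arrays were on plate 2. The share of all genes that separate in this way within a batch is not given here. Myc was called slightly higher in PAX5-WT (0.12 ± 0.04 SE, limma adjusted p = 0.0458). It was also called higher in PAX5-G183S (0.15 ± 0.04 SE, limma adjusted p = 0.0129). Myc passed in neither isolation batch alone. Leaving out single arrays ended the call in PAX5-WT for 11 of 14 arrays (limma adjusted p up to 0.119), and that in PAX5-G183S for 0 of 14. In PAX5-G183V, PAX5-P80R and PAX5-Δ2-6 it differed from MIR by 0.03, 0.05 and -0.01 with no call.

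The mean log2 signal of the 42 members was 9.999 ± 0.031 in PAX5-WT, 9.99 ± 0.09 in PAX5-G183S, 10.05 ± 0.07 in PAX5-G183V (SD, n = 7 each), 10.05 ± 0.05 in PAX5-P80R and 10.02 ± 0.08 in PAX5-Δ2-6 (SD, n = 6 each), against 9.96 ± 0.02 in MIR (SD, n = 7). In no construct was the group's mean below that of the empty vector.

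**Figure D1:**
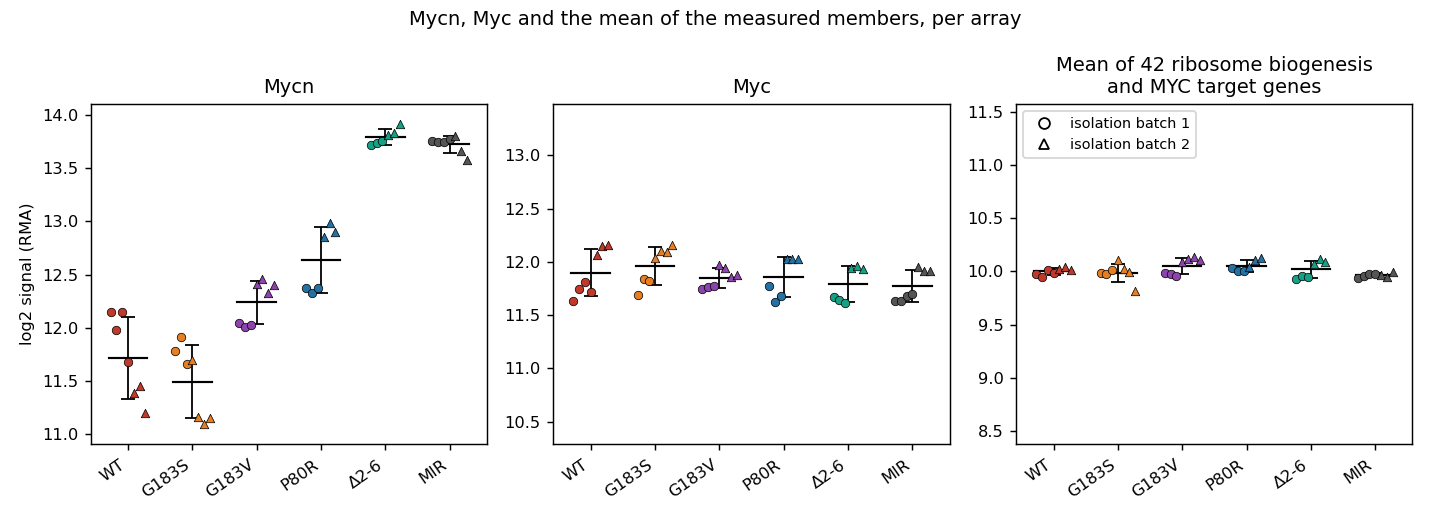
Log2 signal per array of Mycn, of Myc and of the mean of the 42 measured members, by construct, with the same height of axis in each panel. Points are arrays (circles isolation batch 1, triangles isolation batch 2), bars the mean and error bars the SD. Mycn falls to 11.10 to 12.99 in 4 constructs, while the members' mean stays between 9.82 and 10.13 on all 40 arrays.

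In PAX5-WT against MIR the transductions of both groups ran side by side in the same number series (34 to 44 and 58 to 66). Of the 42 members 1 was called higher and 0 lower (limma adjusted p under 0.05), while 3.59% of all genes were called higher and 2.84% lower. The member that rose was Odc1, ornithine decarboxylase, the first enzyme of polyamine synthesis. It had a lowest, median and highest log2 signal of 8.02, 8.21 and 8.43 in PAX5-WT and 7.83, 8.00 and 8.08 in MIR. These ranges overlapped, and Odc1 was 1.18-fold higher in PAX5-WT (0.24 ± 0.07 SE; limma adjusted p = 0.0392). Within isolation batch 1 it was 0.27 higher and called along with Gar1 (2 members, beside 2.46% of all genes higher), and within batch 2 it was 0.20 higher with 0 members called (beside 0.883%, limma adjusted p under 0.05). The call of Odc1 ended without MIR replicate 1, 2, 4, 5 or 6 or PAX5-WT replicate 1, 3, 4 or 6, where the difference stayed at 0.20 or more (limma adjusted p up to 0.115).

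The members' median difference between PAX5-WT and MIR was 0.04, with 30 of 42 above 0. Over all genes the median was 0.01, with 53.2% above 0. Unadjusted limma p-values under 0.05 numbered 7 among the members (6 higher, 1 lower) and 2870 among 17097 genes. The 95% interval of every member lay within a 1.5-fold change in either direction, as did that of 97.7% of all genes. For 41 of the 42 it also excluded a 1.2-fold fall, the exception being Wdr75, a small-subunit factor with a low signal (mean 5.72). Over all genes the same held for 84.7%.

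PAX5-G183S, with the largest Mycn difference from MIR by its estimate, is described next. Of the 42 members 0 were called in either direction against MIR (limma adjusted p under 0.05), while 3.69% of all genes were called higher and 2.43% lower. At an unadjusted limma p under 0.05, where 3097 of 17097 genes passed, the count was 1 member, lower. That member was Rrn3, the factor that recruits RNA polymerase I to ribosomal DNA. Its lowest, median and highest signals were 8.87, 9.06 and 9.10 in PAX5-G183S and 9.01, 9.14 and 9.26 in MIR, which overlapped. The difference was -0.15 ± 0.05 (SE; limma adjusted p = 0.0574), and in PAX5-WT, at 8.88, 8.99 and 9.17, it was -0.12 ± 0.05 (limma adjusted p = 0.129). Rrn3 in PAX5-G183S passed the threshold when dim genes were left out (mean level under 5), with the trend and robust settings of limma, with another quantile normalization, with 3 transduction series as the batch term, without replicate 5 of PAX5-G183S, and without the arrays of transductions 45 to 57, a setting chosen after seeing the data (limma adjusted p = 0.0324). The member with the next smallest p was Heatr1, at 0.09 ± 0.05 (limma adjusted p = 0.288). The members' median difference was 0.01 with 24 of 42 above 0, and 40 of 42 intervals excluded a 1.2-fold fall, all but those of Polr1b, the second-largest subunit of RNA polymerase I, and Wdr75. Over all genes 83.4% did, and 51.3% had a difference above 0.

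**Figure D2:**
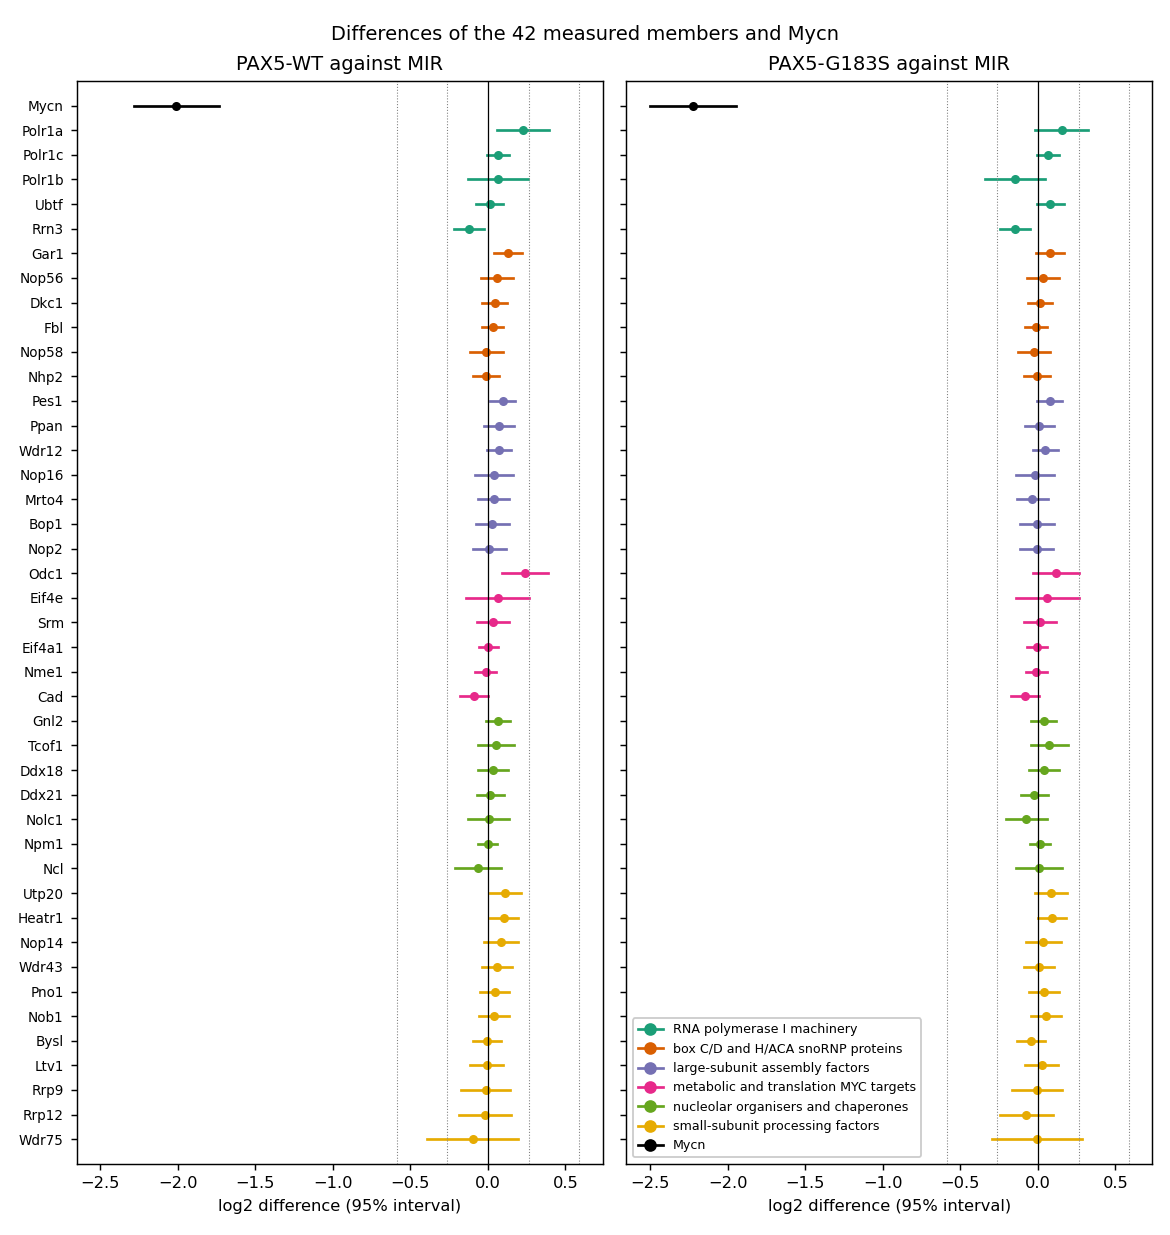
Log2 difference from MIR of the 42 members, coloured by role, and of Mycn, in PAX5-WT and in PAX5-G183S (points) with the 95% interval (lines). Dotted lines mark a 1.2-fold and a 1.5-fold change either way. All members lie within the outer lines, and the intervals of Mycn end at -1.73 in PAX5-WT and -1.95 in PAX5-G183S.

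PAX5-G183S against PAX5-WT called 0 members (limma adjusted p under 0.05), beside 0.00585% of all genes higher and 0.0702% lower. An unadjusted limma p under 0.05 was reached by 1 member, beside 942 of 17097 genes. The smallest p-values were those of Polr1b (-0.21 ± 0.10, limma adjusted p = 0.864) and Odc1 (-0.12 ± 0.07, limma adjusted p = 0.934). Without PAX5-G183S replicate 7 these differences were -0.12 and -0.05. Mycn differed between these constructs by -0.21 ± 0.14 with no call (limma adjusted p = 0.947). The 95% intervals of all 42 members lay within a 1.5-fold change, as did those of 99.6% of all genes.

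Comparisons of PAX5-G183V, PAX5-P80R and PAX5-Δ2-6 with MIR set arrays of different transduction series against each other. These 3 constructs came from transductions 1 to 9 and 45 to 57, while MIR and PAX5-WT came from 34 to 44 and 58 to 66, and PAX5-G183S likewise apart from its replicate 4, which was transduction 45. Isolation batch 1 holds the series 1 to 9 and 34 to 44, and batch 2 the other pair. All PAX5-P80R and PAX5-Δ2-6 arrays were on plate 2, while the other groups were split over both plates. Plate was a term of the fit, but ranges of single arrays are not adjusted for it.

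The members' mean per array was 10.04 to 10.13 in the 11 arrays of transductions 45 to 57, 9.93 to 10.03 in the 9 of 1 to 9, 9.93 to 10.01 in the 11 of 34 to 44, and 9.82 to 10.04 in the 9 of 58 to 66. Of the 11 arrays of 45 to 57, 10 lay above every one of the 29 other arrays, whichever construct they carried. Mycn spanned 11.69 to 13.91 within those 11 arrays. Replicate 4 of PAX5-G183S, the array of that construct in this series, had a members' mean of 10.11, against 9.82 to 10.02 in its other 6 arrays.

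Gene by gene, transductions 45 to 57 minus 58 to 66 gave a median difference of 0.14 over the members, with 39 of 42 above 0, and 0.00 over all genes, with 50.9% above 0. The construct and the transduction series cannot be told apart in these comparisons.

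**Figure D3:**
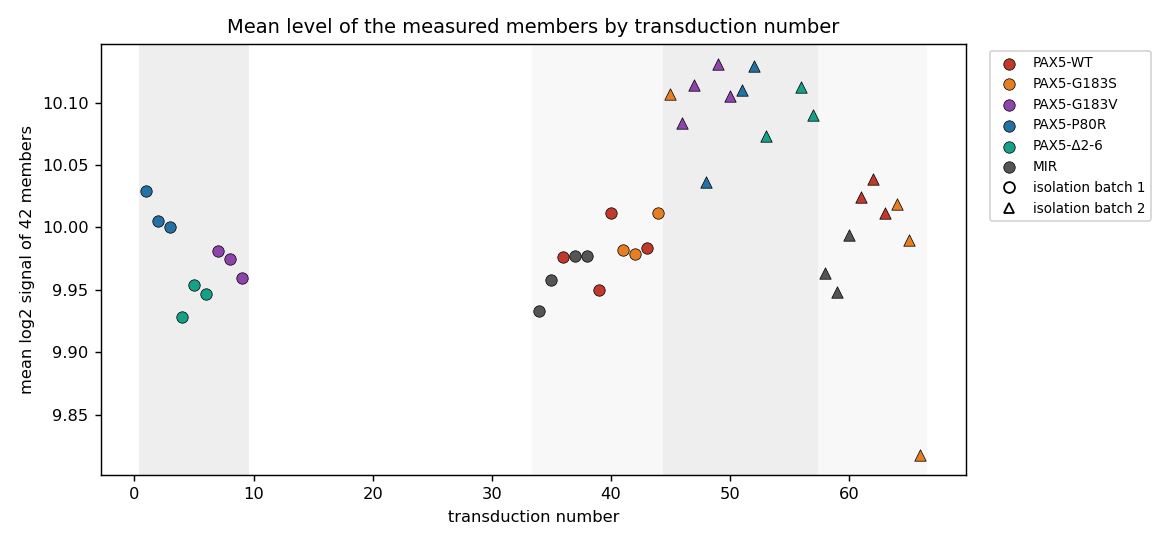
Mean log2 signal of the 42 members on each array against its transduction number, coloured by construct (circles isolation batch 1, triangles isolation batch 2, shading the 4 number series). The arrays numbered 45 to 57 sit at 10.04 to 10.13 for 4 different constructs, and those of the other series at 9.82 to 10.04.

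In PAX5-G183V against MIR 3 of the 42 members were called higher and 0 lower, beside 5.63% of all genes higher and 3.64% lower. Counted at an unadjusted limma p under 0.05 there were 17 members, all higher, beside 3833 of 17097 genes, 2191 of them higher. Utp20, a scaffold of the small-subunit processome, had a lowest, median and highest signal of 9.94, 10.17 and 10.33 in PAX5-G183V and 9.81, 9.93 and 9.995 in MIR. It rose by 0.19 ± 0.05 (SE; limma adjusted p = 0.00869). Heatr1, a processome protein that also serves transcription by RNA polymerase I, was at 10.19, 10.25 and 10.49 in PAX5-G183V and 9.96, 10.15 and 10.19 in MIR, and rose by 0.17 ± 0.05 (limma adjusted p = 0.0138). Odc1 was at 8.00, 8.22 and 8.34 in PAX5-G183V and rose by 0.24 ± 0.07 (limma adjusted p = 0.0290). The groups overlapped in all 3 genes.

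Within isolation batch 1 these changes were 0.08 for Utp20, 0.06 for Heatr1 and 0.08 for Odc1, with 0 members called (beside 1.1% of all genes higher, limma adjusted p under 0.05). Within isolation batch 2 they were 0.32, 0.29 and 0.39, and 9 members were called higher, beside 4.92% of all genes. The other members called there were Nop14, Rrp9, Bop1, Nob1, Srm and Ddx21, at 0.23 to 0.39. Without the arrays of transductions 45 to 57 0 members were called, and the 3 genes differed by 0.09, 0.07 and 0.03. That setting keeps 3 of the 7 PAX5-G183V arrays, so fewer differences of any gene can be called. Its share of all genes is not given here. Of 30 genes of the other lists below called in PAX5-G183V, Mycn aside, 3 stayed called. With 3 transduction series as the batch term, which rests on 45 to 57 against 58 to 66, 19 members were called higher, beside 8.19% of all genes. A batch by construct difference was called for 0 members (limma interaction adjusted p under 0.05; 1.04% of all genes), the smallest p being that of Ddx21 (limma interaction adjusted p = 0.0993). Mycn fell by 1.900 without the arrays of transductions 45 to 57. Leaving out MIR replicate 6 ended the call of Heatr1 (0.13, limma adjusted p = 0.0649), and leaving out MIR replicate 5 or 6 or PAX5-G183V replicate 4, 5, 6 or 7 ended that of Odc1 (limma adjusted p up to 0.0769).

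PAX5-P80R against MIR called 1 member higher and 0 lower, beside 2.25% of all genes higher and 2.47% lower. It was Srm, spermidine synthase, which follows Odc1 in the polyamine pathway. Counted at an unadjusted limma p under 0.05 there were 12 members, all higher, beside 2759 of 17097 genes, 1363 of them higher. Srm had a lowest, median and highest signal of 11.55, 11.76 and 11.86 in PAX5-P80R and 11.42, 11.54 and 11.59 in MIR, with 1 of the 6 arrays inside the range of MIR. The rise was 0.19 ± 0.06 (SE; limma adjusted p = 0.0393). Heatr1 and Nme1 lay above every MIR array on all 6 PAX5-P80R arrays, as did 1.26% of all genes, and neither was called. Nme1, a nucleoside diphosphate kinase, was at 12.29, 12.34 and 12.41 in PAX5-P80R and 12.14, 12.23 and 12.26 in MIR (0.11 ± 0.04, limma adjusted p = 0.0844). The change of Srm was 0.09 in isolation batch 1 and 0.33 in batch 2, and 0.11 without the arrays of transductions 45 to 57 (limma adjusted p = 0.495), where 0 members were called (limma adjusted p under 0.05). That setting keeps 3 of the 6 PAX5-P80R arrays, and its share of all genes is not given here. Of 14 genes of the other lists below called in PAX5-P80R, Mycn aside, 3 stayed called. In batch 1 alone 0 members were called (beside 0.585% of all genes higher), and in batch 2 alone Rrp9, Srm and Ddx21 were called higher, at 0.49, 0.33 and 0.29 (3 members, beside 1.6%). Leaving out any of 9 of the 13 arrays ended the call of Srm (limma adjusted p up to 0.0925): MIR replicates 1, 5, 6 and 7 and all of PAX5-P80R but replicate 3.

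PAX5-Δ2-6 is the construct in which Mycn was not called different from MIR. Of the 42 members 0 were called (limma adjusted p under 0.05), as were 0% of all genes in either direction. An unadjusted limma p under 0.05 was reached by 3 members, all higher, beside 1308 of 17097 genes, 643 of them higher. The smallest p-values were those of Nob1, the nuclease that makes the end of the small-subunit RNA (0.16 ± 0.05, limma adjusted p = 0.477), and Ubtf, the RNA polymerase I activator (0.12 ± 0.05, limma adjusted p = 0.551). The members' median difference from MIR was 0.06 in PAX5-Δ2-6, 0.08 in PAX5-P80R and 0.09 in PAX5-G183V, with 37 of 42 above 0 in each. Over all genes 51.1%, 51.1% and 52.4% lay above 0, in the same order. In isolation batch 1 alone 11, 33 and 28 of the 42 members lay above 0, and in batch 2 alone 38, 37 and 39. These 3 comparisons share the MIR arrays and the transduction series. Without the arrays of transductions 45 to 57 the medians were -0.01, 0.06 and 0.01.

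Within isolation batch 1 the medians were -0.03 in PAX5-Δ2-6, 0.05 in PAX5-P80R and 0.02 in PAX5-G183V, and within batch 2 they were 0.15, 0.15 and 0.14. In PAX5-WT and PAX5-G183S they were 0.01 and 0.04 in batch 1, and 0.07 and 0.03 in batch 2. The 95% intervals of all 42 members lay within a 1.5-fold change in each of the 5 comparisons with MIR, as did those of 97.2% to 99.1% of all genes. Of 42 intervals 41, 41 and 40 excluded a 1.2-fold fall in PAX5-G183V, PAX5-P80R and PAX5-Δ2-6, against 81.4%, 77.9% and 80.4% of all genes. All these intervals are those of the probe set used for each gene. Another 25 probe sets of 20 members had a mean level of 5 or more. Their differences ran from -0.25 to 0.33, both in PAX5-G183V. From 15 (PAX5-G183S) to 20 (PAX5-P80R) of the 25 had the sign of the probe set used.

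**Figure D4:**
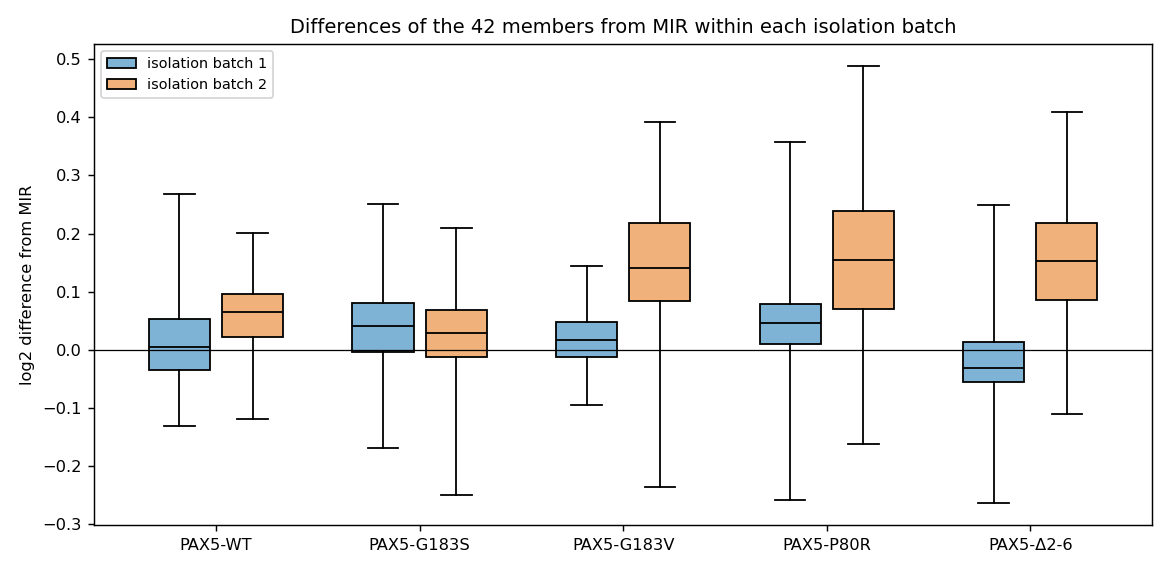
Log2 differences of the 42 members from MIR within isolation batch 1 and isolation batch 2, for each construct. Boxes span the quartiles with the median as a line, and whiskers the lowest and highest member. The medians of PAX5-G183V, PAX5-P80R and PAX5-Δ2-6 are 0.02, 0.05 and -0.03 in batch 1 and 0.14, 0.15 and 0.15 in batch 2.

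Between constructs that differ in Mycn within the same transduction series, PAX5-G183V against PAX5-Δ2-6 called 0 members (limma adjusted p under 0.05), beside 3.35% of all genes higher and 1.64% lower. An unadjusted limma p under 0.05 was reached by 4 members, beside 3000 of 17097 genes. Mycn was 3.05-fold lower in PAX5-G183V here, with -1.61 ± 0.15. The leading members were Odc1 (0.20 ± 0.08, limma adjusted p = 0.170) and Eif4e (0.28 ± 0.11, limma adjusted p = 0.173), both with the higher mean in PAX5-G183V. The members' median difference was 0.01 with 23 of 42 above 0, beside 51.5% of all genes.

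PAX5-P80R against PAX5-Δ2-6 called 1 member higher and 0 lower, beside 1.95% of all genes higher and 1.36% lower. This was Eif4e (0.37 ± 0.11, limma adjusted p = 0.0495), with signals of 3.79 to 4.15 in PAX5-P80R and 3.40 to 3.74 in PAX5-Δ2-6. The groups did not overlap, as for 1.22% of all genes, but all lay below the median of every array. Leaving out any of 10 of the 12 arrays ended this call (limma adjusted p up to 0.135), all but PAX5-P80R replicates 1 and 4. Mycn was 2.23-fold lower in PAX5-P80R, and the members' median difference was 0.03, with 27 of 42 above 0, beside 49.6% of all genes. An unadjusted limma p under 0.05 was reached by 4 members, beside 2254 of 17097 genes.

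Against PAX5-WT, PAX5-G183V called 0 members (limma adjusted p under 0.05), beside 0.0526% of all genes higher and 0.0936% lower. An unadjusted limma p under 0.05 was reached by 5 members, all higher, beside 1966 of 17097 genes, 1069 of them higher. Cad, the enzyme that starts pyrimidine synthesis, had the smallest p (0.13 ± 0.04, limma adjusted p = 0.239), followed by Rrp9, a protein of the U3 small nucleolar particle (0.20 ± 0.08, limma adjusted p = 0.302). Comparisons of PAX5-G183V and PAX5-P80R with PAX5-WT cross the transduction series as those with MIR do, and Mycn was 0.53 ± 0.14 higher in PAX5-G183V (limma adjusted p = 0.0943) and 0.98 ± 0.15 higher in PAX5-P80R than in PAX5-WT (limma adjusted p = 3.00e-05). PAX5-P80R against PAX5-WT called 1 member higher and 0 lower, beside 2.67% of all genes higher and 3.63% lower. It was Nme1, which had 12.11, 12.20 and 12.27 in PAX5-WT and lay above that range on all 6 PAX5-P80R arrays, as did 1.01% of all genes (0.12 ± 0.04, limma adjusted p = 0.0351). Leaving out any of 6 of the 13 arrays ended the call, PAX5-WT replicates 1, 3 and 7 and PAX5-P80R replicates 1, 4 and 6 (limma adjusted p up to 0.103). Without the arrays of transductions 45 to 57 Nme1 differed by 0.11 (limma adjusted p = 0.293), and the member called in its place was Rrn3, higher in PAX5-P80R. On all arrays 11 members, all higher, had an unadjusted limma p under 0.05, beside 3257 of 17097 genes, 1430 of them higher.

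In the test for any difference among the 6 groups 1 of the 42 members passed, beside 14.3% of all genes (limma F test, adjusted p under 0.05). Mycn passed with a limma F test adjusted p of 9.42e-17. The member was Cad (limma F test adjusted p = 0.0492). Leaving out single arrays gave 0 to 3 members, with 0 in 26 of 40 cases. Cad had a lowest, median and highest signal of 10.25, 10.29 and 10.38 in PAX5-WT, 10.21, 10.25 and 10.49 in PAX5-G183S, 10.34, 10.40 and 10.51 in PAX5-G183V, 10.32, 10.39 and 10.58 in PAX5-P80R, and 10.41, 10.45 and 10.54 in PAX5-Δ2-6, against 10.30, 10.37 and 10.48 in MIR. All groups but PAX5-WT and PAX5-Δ2-6 overlapped each other, and against MIR Cad differed by -0.09 in PAX5-WT and -0.08 in PAX5-G183S with no call. The next members by p were Odc1, Bop1, Srm, Rrp9, Utp20, Nme1, Heatr1, Rrn3 and Nob1 (limma F test adjusted p from 0.0615 to 0.123).

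Bop1, which with Pes1 and Wdr12 forms the PeBoW complex of large-subunit assembly, averaged 8.80 ± 0.09 in PAX5-WT, 8.76 ± 0.08 in PAX5-G183S, 8.91 ± 0.08 in PAX5-G183V, 8.94 ± 0.09 in PAX5-P80R and 8.85 ± 0.09 in PAX5-Δ2-6, against 8.77 ± 0.12 in MIR (SD, n = 7, 7, 7, 6, 6 and 7). Rrp9 averaged 8.92 ± 0.19, 8.92 ± 0.19, 9.11 ± 0.13, 9.13 ± 0.11 and 9.04 ± 0.14 in the same order of constructs, against 8.93 ± 0.12 in MIR. Nob1 averaged 9.65 ± 0.08, 9.67 ± 0.10, 9.76 ± 0.11, 9.68 ± 0.07 and 9.74 ± 0.10, against 9.61 ± 0.04 in MIR. In each of these 3 genes the groups overlapped MIR. Srm averaged 11.56 ± 0.07 in PAX5-WT, 11.56 ± 0.12 in PAX5-G183S, 11.66 ± 0.15 in PAX5-G183V, 11.74 ± 0.13 in PAX5-P80R and 11.66 ± 0.14 in PAX5-Δ2-6, against 11.53 ± 0.06 in MIR. Odc1 averaged 8.21 ± 0.14, 8.08 ± 0.27, 8.20 ± 0.10, 8.08 ± 0.12 and 7.97 ± 0.08 in the same order of constructs, against 7.98 ± 0.09 in MIR. In PAX5-G183S the lowest Odc1 signal, 7.58, lay below every MIR array and the highest, 8.32, above every one.

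**Figure D5:**
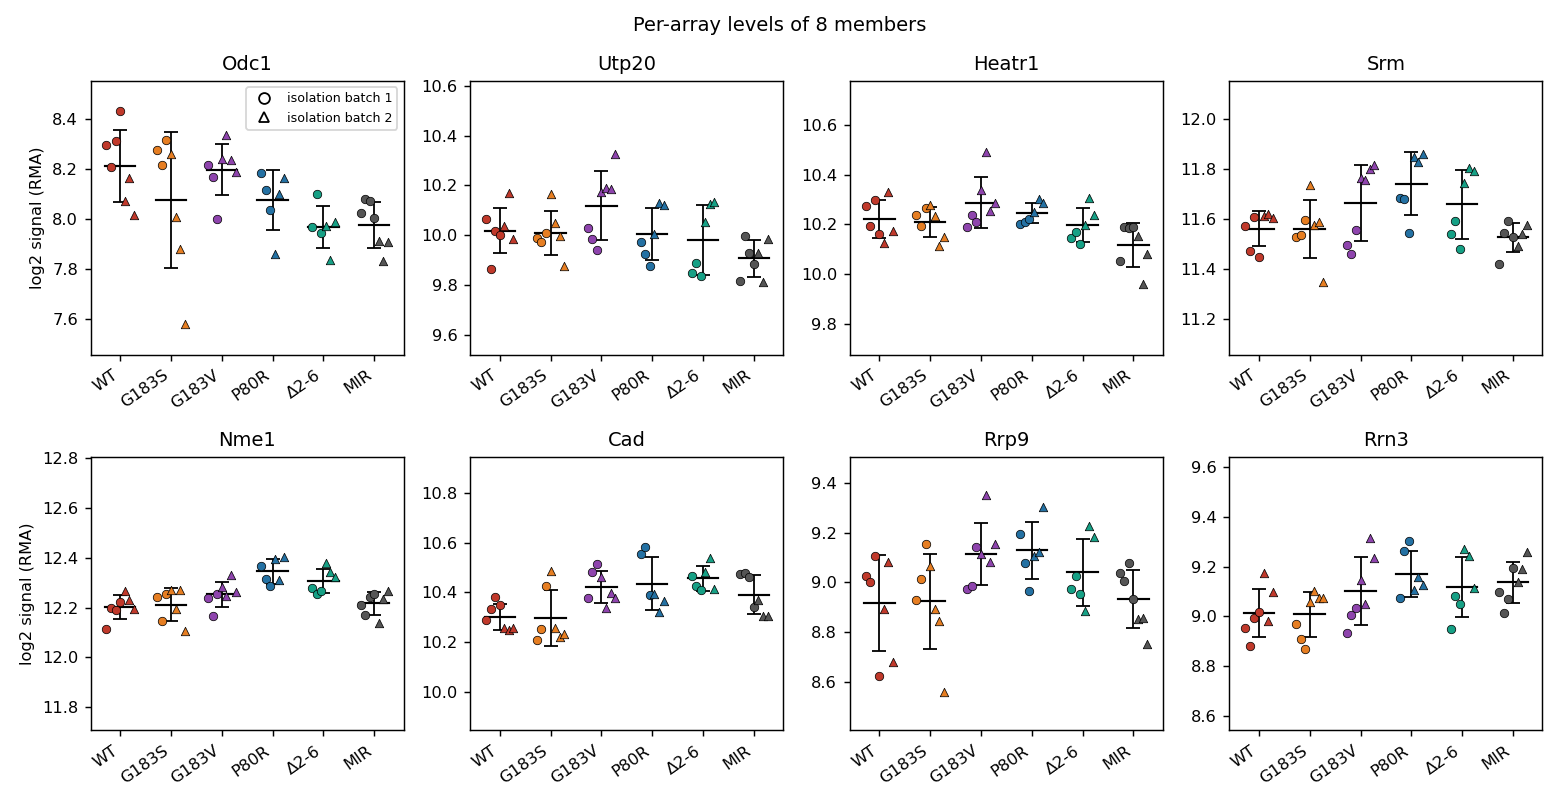
Log2 signal per array of Odc1, Utp20, Heatr1, Srm, Nme1, Cad, Rrp9 and Rrn3 by construct, on axes of equal height. Points are arrays (circles isolation batch 1, triangles isolation batch 2), bars the mean and error bars the SD. The groups overlap MIR except for Heatr1 and Nme1 in PAX5-P80R, and in PAX5-G183V the triangles of Utp20, Heatr1 and Srm stand above the circles.

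By role, the 5 genes of RNA polymerase I and its factors went both ways. In PAX5-WT against MIR Polr1a, the largest subunit, stood at 0.23 and Rrn3 at -0.12, and the 5 had a median of 0.06. The corresponding medians were 0.07 in PAX5-G183S, 0.05 in PAX5-G183V, 0.04 in PAX5-P80R and 0.01 in PAX5-Δ2-6, with 0 of 5 called in any of these comparisons. Polr1a stood above MIR by 0.15 to 0.26 in the 5 constructs with no call, and Rrn3 stood below it by 0.01 to 0.15.

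The 6 snoRNP proteins (the box C/D proteins Fbl, Nop56 and Nop58 and the H/ACA proteins Dkc1, Gar1 and Nhp2) had 0 calls against MIR, and their medians ran from 0.00 in PAX5-G183S to 0.08 in PAX5-G183V. Fbl, the methyltransferase of the box C/D particle, had 0.03 in PAX5-WT and -0.01 in PAX5-G183S, at a mean level of 12.1. Gar1 stood at 0.13 ± 0.04 in PAX5-WT (limma adjusted p = 0.0735) and was called in isolation batch 1 alone (0.19, limma adjusted p = 0.0324). Nop56 reached 0.18 in PAX5-P80R with no call, and stood at 0.03 in PAX5-G183S. Dkc1, the pseudouridine synthase of the H/ACA particle, ran from 0.01 to 0.06 over the 5 constructs, Nhp2 from -0.01 to 0.07 and Nop58 from -0.03 to 0.12.

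Among the 11 small-subunit factors 2 were called higher in PAX5-G183V (Utp20 and Heatr1) and 0 in the other 4 constructs against MIR. Their medians were 0.04 in PAX5-WT, 0.02 in PAX5-G183S, 0.11 in PAX5-G183V, 0.10 in PAX5-P80R and 0.07 in PAX5-Δ2-6. Values ran from -0.20 (Wdr75) to 0.24 (Rrp9) in PAX5-P80R. Of the factors not yet described, Bysl lay between -0.04 and 0.06 over the 5 constructs, Ltv1 between -0.0082 and 0.10, Nop14 between 0.04 and 0.15 and Pno1, the partner of Nob1, between 0.03 and 0.11. Rrp12 and Wdr43 lay between -0.07 and 0.18 and between 0.0072 and 0.16, both highest in PAX5-P80R. The 7 large-subunit factors (Bop1, Pes1, Wdr12, Nop2, Nop16, Mrto4 and Ppan) had 0 calls against MIR, and lay between 0.01 and 0.09 in PAX5-WT and between -0.04 and 0.08 in PAX5-G183S. Over the 5 constructs Pes1 ran from 0.0042 to 0.09, Wdr12 from 0.05 to 0.11 and Nop2, a methyltransferase of the large-subunit RNA, from -0.0083 to 0.13. Nop16, Mrto4 and Ppan ran from -0.02 to 0.11, from -0.04 to 0.06 and from 0.01 to 0.09.

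Of the nucleolar organisers and chaperones 7 of 8 were measured and 0 called against MIR. Npm1, nucleophosmin, had a mean level of 13.5 and differed from MIR by -0.0023 in PAX5-WT and 0.02 in PAX5-G183S. Nolc1, a chaperone of snoRNPs, stood at 0.01 in PAX5-WT and -0.07 in PAX5-G183S. The helicases Ddx18 and Ddx21 ran from 0.02 to 0.14 and from -0.02 to 0.11 over the 5 constructs. Gnl2, a nucleolar GTPase, ran from 0.03 to 0.08 and Tcof1, treacle, from -0.12 to 0.07. Of the 6 metabolic and translation genes 1 was called in PAX5-WT, 1 in PAX5-G183V and 1 in PAX5-P80R, as given above. Eif4a1, the RNA helicase of translation initiation (mean level 13.2), differed from MIR by at most 0.03 in the 5 constructs.

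Other genes of these pathways were taken from lists of 303 gene symbols in 13 groups, other names of some genes included, of which 255 were measured. For reading their counts, the shares of all genes called higher and lower against MIR were 3.59% and 2.84% in PAX5-WT, 3.69% and 2.43% in PAX5-G183S, 5.63% and 3.64% in PAX5-G183V, 2.25% and 2.47% in PAX5-P80R, and 0% in PAX5-Δ2-6. Of the 30 listed genes called in PAX5-G183V other than Mycn, all 30 had the larger difference in size in isolation batch 2, and 3 (Ddx54, Ly6c1 and Cd6) were called without the arrays of transductions 45 to 57. Of the 14 called in PAX5-P80R other than Mycn, 9 were larger in batch 2 and 3 (Nol9, Polr3d and Shmt1) were called without those arrays. The 14 called in PAX5-WT and the 15 in PAX5-G183S other than Mycn and Myc were all called in that setting, which was chosen after seeing the data. It leaves out no PAX5-WT or MIR array and only replicate 4 of PAX5-G183S, so it hardly tests these calls.

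Of 42 ribosomal proteins measured of 51 listed, 0 were called against MIR in any construct (limma adjusted p under 0.05), with medians of 0.00 in all 5. Of 19 translation factors measured of 24, 1 was called higher in PAX5-WT (Eif4b, 0.18 ± 0.05), 1 in PAX5-G183S and 1 in PAX5-G183V (Eif4ebp1, a brake on cap-dependent translation, 0.19 ± 0.04 and 0.20 ± 0.04), and 0 in PAX5-P80R and PAX5-Δ2-6.

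Other large-subunit factors (38 measured of 41) had 3 called higher in PAX5-WT, 1 in PAX5-G183S, 8 in PAX5-G183V, 3 in PAX5-P80R and 0 in PAX5-Δ2-6, and 0 lower. Ddx54, a nucleolar helicase, rose by 0.49 ± 0.05 in PAX5-WT (limma adjusted p = 7.09e-10), 0.45 ± 0.05 in PAX5-G183S and 0.35 ± 0.05 in PAX5-G183V. Nol9, a polynucleotide kinase of precursor RNA processing, rose by 0.31 ± 0.07 in PAX5-G183V and 0.28 ± 0.08 in PAX5-P80R, and Surf6 rose by 0.27 ± 0.05 in PAX5-WT. The list's median was 0.04 in PAX5-WT and 0.02 in PAX5-G183S. Its mean level averaged 9.46 in the arrays of transductions 45 to 57, against 9.33, 9.34 and 9.35 in those of 1 to 9, 34 to 44 and 58 to 66.

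Other small-subunit factors (34 measured of 42) had 0 calls in PAX5-WT and PAX5-Δ2-6, 1 lower in PAX5-G183S, 2 higher and 1 lower in PAX5-G183V and 1 higher in PAX5-P80R. Utp6 fell by 0.15 in PAX5-G183S and by 0.13 in PAX5-G183V, Pwp2 rose by 0.24 ± 0.07 in PAX5-G183V and Utp23 rose by 0.30 ± 0.06 in PAX5-P80R. This list too had its highest mean level in transductions 45 to 57, at 9.70, against 9.55 to 9.60 in the other series. Of 14 further factors of RNA polymerases I and III measured of 19, 1 was higher in PAX5-WT (Bdp1, 0.13 ± 0.04), 0 in PAX5-G183S, 1 in PAX5-G183V (Polr1d, 0.13 ± 0.04), 2 in PAX5-P80R (Polr1e, 0.25 ± 0.07, and Polr3d, 0.29 ± 0.08) and 0 in PAX5-Δ2-6, with 0 lower.

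Further MYC targets of growth and nucleotide synthesis (30 measured of 36) had 1 higher and 1 lower in PAX5-WT and in PAX5-G183S, 4 and 0 in PAX5-G183V, 2 and 0 in PAX5-P80R, and 0 in PAX5-Δ2-6. Sms, spermine synthase, which follows Srm in the polyamine pathway, rose by 0.29 ± 0.04 in PAX5-WT, 0.28 ± 0.04 in PAX5-G183S, 0.23 ± 0.04 in PAX5-G183V and 0.17 ± 0.04 in PAX5-P80R (limma adjusted p at most 0.0126). Tyms, thymidylate synthase, fell by 0.19 in PAX5-WT and by 0.15 in PAX5-G183S. Shmt1, a serine hydroxymethyltransferase of folate metabolism, rose by 0.63 ± 0.08 in PAX5-P80R. It was 0.32 higher in isolation batch 1 and 1.023 higher in batch 2, and against PAX5-Δ2-6, within the same transduction series, it was 0.48 ± 0.08 higher in PAX5-P80R (limma adjusted p = 0.000151).

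In the MYC family and its partners (10 measured of 12, Max not among those named here) Mlx, a dimerization partner of the Mondo proteins and of some Mxd proteins, fell by 0.28 in PAX5-WT, by 0.30 in PAX5-G183S and by 0.37 in PAX5-G183V, and rose by 0.35 ± 0.09 in PAX5-P80R. Mxi1, a repressor that competes with MYC for MAX, rose by 0.15 ± 0.04 in PAX5-G183S and 0.15 ± 0.05 in PAX5-P80R. Among cell cycle genes (26 measured of 27) 3 were lower in PAX5-WT, 4 in PAX5-G183S, 3 in PAX5-G183V and 2 in PAX5-P80R, with 2 higher in PAX5-G183V. Mki67, a marker of cycling cells, fell by 0.29, 0.26, 0.32 and 0.32 in these constructs, Ccnd3 fell by 0.32 in PAX5-WT, and Ccnd2 rose by 0.25 ± 0.06 in PAX5-G183V.

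Plasma cell markers (7 measured of 10 listed symbols, Igj being another name of Jchain) had 3 lower in PAX5-WT, 3 in PAX5-G183S and 5 in PAX5-G183V. In PAX5-P80R and PAX5-Δ2-6 0 were called. Ly6c1 fell by 0.92, 0.95 and 0.80 in the first 3, and Jchain and Tnfrsf17 fell by 0.63 and by 0.38 in PAX5-G183V. These 2 differences were -0.10 and -0.05 in isolation batch 1 and -1.08 and -0.66 in batch 2, and -0.03 and 0.07 without the arrays of transductions 45 to 57. Of the T cell markers (9 of 11) Cd6 rose by 0.37 ± 0.09 in PAX5-G183S, 0.57 ± 0.09 in PAX5-G183V and 0.46 ± 0.10 in PAX5-P80R, while Cd8a, near background at 3.84, fell by 0.26 in PAX5-G183V. Of the myeloid markers (10 of 11 listed symbols, Emr1 being another name of Adgre1) Elane, near background at 3.50, was called higher in PAX5-P80R. Against MIR 0 of 11 fibroblast and 0 of 5 erythroid markers were called. Between constructs 2 fibroblast markers with a mean level under 5 were called. Vim was higher in PAX5-P80R than in PAX5-Δ2-6 (0.86 ± 0.23, limma adjusted p = 0.0227), at 0.25 in isolation batch 1 and 1.47 in batch 2, and Col3a1 was lower in PAX5-P80R than in PAX5-WT (-0.41 ± 0.11, limma adjusted p = 0.0133). The part of these cells or states in the members' levels was not tested.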

How the data were processed

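The values are log2 signals that the authors deposited for each probe set, from RMA per the submitters' processing notes (version not given in the sources used here). Raw signals were not analysed here. Of 45141 probe sets 28898 named 1 gene, 551 several and 15692 none, and the probe set with the highest mean stood for each of 17097 genes. Labels gave the groups, 2 plates, 2 RNA isolation batches and transduction numbers. In R 4.3.3, limma 3.58.1 (statmod 1.5.0 for the random block) fitted 6 groups, plate and isolation batch on all 40 arrays, and 10 comparisons, an F test and batch by construct terms were adjusted by Benjamini-Hochberg over all genes (called under 0.05). The fit was tested on simulated data.

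Precision is set by the number of arrays: the members' 95% intervals had a median half-width of 0.10 to 0.11. Closest arrays had r = 0.9969 and 0 columns were identical. The members, lists and tests were chosen with earlier results of these data known. Named are all members, with values of every group for up to 10 with the smallest F test p, up to 3 called members a direction and comparison with the largest change (the 2 smallest p where none), Mycn and Myc, and up to 3 called genes a list. Alternatives were other batch terms, subsets of arrays, normalization, probe set choice, filters and leaving out each array. Fits with 4 transduction series, and without transductions 45 to 57, were chosen after seeing the data.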

Additional observations from a re-analysis of the deposited data

Results flagged for a closer look

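Of 96 sets of arrays examined (16 measures in 6 groups) 2 held a value set far apart from the rest, and chance gives about 1 in 20. Nob1 in PAX5-G183V replicate 5 was at 9.97, with the other arrays of the group at 9.67 to 9.79. Eif4e in PAX5-G183S replicate 7 was at 3.34, with the others at 3.70 to 3.96, all near background.

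The members' mean in PAX5-Δ2-6 minus the MIR mean was -0.018 in isolation batch 1, where the 3 arrays ran from -0.033 to -0.0074, and 0.123 in isolation batch 2, where they ran from 0.105 to 0.144. The offsets from the MIR mean thus had opposite signs in the 2 batches. In batch 1, however, the PAX5-Δ2-6 arrays (9.93 to 9.95) overlapped the MIR arrays (9.93 to 9.98). In batch 2 they lay at 10.07 to 10.11, above MIR at 9.95 to 9.99. These values are not adjusted for plate, and all PAX5-Δ2-6 arrays were on plate 2. The difference of the means was not tested, and the transduction series differs between the batches in the same way.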

How the results depend on the processing

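Values below are members called of 42 (limma adjusted p under 0.05), and the cause of each shift was not tested. In PAX5-WT against MIR the count of 1 became 0 without batch terms, on plate 2 arrays alone, in isolation batch 2, with a random block and with a replicate block, and 2 in isolation batch 1, without dim genes (mean level under 5) and with trend and robust settings. In PAX5-G183S against MIR the count of 0 became 1 with 3 transduction series, repeated quantile normalization, no dim genes, trend and robust settings, and without transductions 45 to 57. In PAX5-G183V against MIR the count of 3 became 0 on plate 2, in batch 1, with 4 series and without transductions 45 to 57, and 9 in batch 2, 19 with 3 series, 7 without dim genes and 6 with trend and robust settings. With 4 series PAX5-G183V, PAX5-P80R and PAX5-Δ2-6 are linked to MIR and PAX5-WT only through 1 array, PAX5-G183S replicate 4. A count of 0 in those comparisons therefore says little. In PAX5-P80R against MIR the count of 1 became 0 without batch terms, on plate 2, in batch 1, with the replicate block, with only these groups, with repeated quantile normalization, with 4 series and without transductions 45 to 57, and 3 in batch 2, 16 with 3 series, 6 without dim genes and 5 with trend and robust settings. With 3 series 8 were called in PAX5-Δ2-6 against MIR and 6 in PAX5-G183V against PAX5-WT, both 0 otherwise. In PAX5-P80R against PAX5-WT the count of 1 became 0 on plate 2, in batch 1, with the replicate block, with only these groups, with repeated quantile normalization and with 4 series, and 11 with 3 series, 4 without dim genes and 3 with trend and robust settings. The count stayed 1 with another member than Nme1 in batch 2 (Rrp9), with the mean of probe sets (Cad) and without transductions 45 to 57 (Rrn3). In PAX5-P80R against PAX5-Δ2-6 it became 0 without batch terms, on plate 2, in either batch, with the replicate block, with the mean of probe sets, without dim genes (Eif4e is one) and without transductions 45 to 57. The F test gave 0 on plate 2, with the replicate block and with repeated quantile normalization, 2 with a random block and with median centring, 3 in batch 2, 15 with 3 series, 11 without dim genes and 9 with trend and robust settings. Over all genes the shares called were, with 3 series, 14.15%, 10.03% and 3.96% in PAX5-G183V, PAX5-P80R and PAX5-Δ2-6 against MIR, 5.90% and 9.61% in PAX5-G183V and PAX5-P80R against PAX5-WT and 20.4% in the F test. Without dim genes they were 21.8% and 13.6% in PAX5-G183V and PAX5-P80R against MIR, 16.8% in PAX5-P80R against PAX5-WT and 34.7% in the F test, and with trend and robust settings 9.99%, 5.54%, 7.21% and 16.4%. The shares without dim genes are of 8273 genes, and the counts of members there leave out Ncl and Eif4e. The F test passed 6.57% on plate 2, 10.3% with the replicate block, 14.4% with repeated quantile normalization and 10.6% in batch 2. Batch by construct terms gave 1 with the mean of probe sets, 3 without dim genes and 6 with trend and robust settings. The comparisons and the shares of all genes behind these last counts are not given here, so they are not read further. Shares are also not given here for the PAX5-WT and PAX5-G183S settings or for single arrays left out.

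Leaving out single arrays gave 0 to 2 in PAX5-WT, 0 to 1 in PAX5-G183S, 1 to 5 in PAX5-G183V, 0 to 3 in PAX5-P80R and 0 in PAX5-Δ2-6 against MIR, 0 to 3 in PAX5-P80R against PAX5-WT, 0 to 1 in PAX5-P80R against PAX5-Δ2-6, 0 in the other 3 comparisons and 0 to 3 in the F test. The highest came without PAX5-WT replicate 7 (2), PAX5-G183S replicate 5 (1), PAX5-G183V replicate 2 or 3 (5) and PAX5-P80R replicate 3 (3). The median of the members in PAX5-G183S against MIR ran from -0.05 (plate 2) to 0.04 (batch 1), and in PAX5-WT from 0.0050 to 0.07. Mycn was -0.50 in PAX5-G183V with the mean of its probe sets, which takes in dim ones.

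Differences with no call in either fit changed sign. Against MIR, Myc in PAX5-G183V was -0.021 on plate 2, -0.013 in batch 2 and -0.0014 with 3 series, Myc in PAX5-Δ2-6 was 0.020 without batch terms, in batch 2 and with 4 series and 0.0046 with a random block, and Mycn in PAX5-Δ2-6 was -0.0069 with the replicate block, -0.0042 with the mean of probe sets and -0.11 without transductions 45 to 57. Against PAX5-WT, Myc was -0.025 in PAX5-G183S in batch 2, and in PAX5-G183V 0.041 in batch 1 and 0.0090 without transductions 45 to 57, and Cad in PAX5-G183V was -0.13 with 4 series. The values with 4 series given here rest on PAX5-G183S replicate 4 as the only link between the series. In PAX5-G183V against PAX5-Δ2-6 Myc was -0.0040 on plate 2 and -0.033 in batch 2.

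The replicate numbers did not pair the arrays. Deviations of same-numbered arrays of different groups had a mean correlation of -0.036, other pairs 0.0061, and 4 of 40 arrays correlated best with their own number.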
